A study of Mus musculus with 35 samples.

Results

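In the wild-type mouse retina at postnatal day (P) 21, 4253 stretches of DNA outside H3K4me3 peaks had a called peak of acetylated histone H3. At P0 they had no called peak of it, or of the chromatin remodeller Brg1. They were selected on measured peak lists. Each is a peak of histone H3 lysine 27 acetylation (H3K27Ac) from wild-type P21 replicate 2 that shared at least 1 bp with a peak of P21 replicate 1 and with a peak of P14 replicate 2. None overlapped an H3K27Ac peak of either wild-type P0 replicate, a Brg1 peak at P0, or a peak of the promoter mark H3K4me3 (trimethylated lysine 4) in any of the 7 wild-type H3K4me3 libraries. They are called new distal regions below, and they made up 9.28% of the 45833 peaks of the list they came from.

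H3K27Ac is laid down on nucleosomes at active promoters and enhancers, and H3K4me3 marks promoters, so acetylation without H3K4me3 is commonly used to point to enhancers. H3K27me3 is the mark of Polycomb repression and cannot be on the same histone tail residue as H3K27Ac. Brg1 is the ATPase of the BAF (SWI/SNF) complexes, which move nucleosomes and give transcription factors access to DNA. In the mouse retina, progenitor cells still divide at P0, while at P21 the tissue consists of differentiated neurons and Müller glia, most of them rods.

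Brg1 was measured with an anti-FLAG antibody in P0 retinae of the Brg1-FLAG knock-in strain (1 library). For H3K27Ac, the wild-type stages P0, P14 and P21 had 2 libraries each and wild-type P12 had 1, and there were 2 libraries of Brg1-deficient P12 retinae. The Brg1-deficient genotype, given as BRG1 -/- in the labels, is Chx10-Cre;Brg1 Lox/Lox in the study, in which Cre acts in progenitor cells in a mosaic pattern. Those retinae therefore also hold stripes of wild-type cells, and the study favoured animals with small eyes for ChIP-Seq, in which Cre had acted more widely. The tissue was the whole retina, so a mark present in few cells and a weak mark in many cells cannot be told apart. For H3K27me3 each of the 4 wild-type stages had 2 libraries, and Brg1-deficient P12 had 1. The antibody against H3K27me3 at P12 (AB3) differed from that of the other stages (AB1). Read depth is unknown for all libraries. The H3K27Ac lists differed in size, from 17433 peaks in P14 replicate 1 to 50005 in P14 replicate 2, and the P21 lists held 18718 and 45833 peaks. The P0 lists held 17588 and 29304 peaks. A region called new is thus one without a called peak in these P0 lists, and whether it was unacetylated at P0 was not tested. Whether replicates came from separate litters is not given in the sources used here.

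Most of the selection was done by the promoter mark and by the smaller P21 list. Of the 45833 peaks of P21 replicate 2, 17340 (37.8%) had a peak in P21 replicate 1 and 35610 (77.7%) in P14 replicate 2, and 16383 had both. Of these, 11121 overlapped H3K4me3 and 5262 were distal. Acetylation was already present in at least 1 P0 library at 359 of the distal peaks, which left 4903 new distal peaks. Only 650 of these overlapped a P0 Brg1 peak (13.3%, 95% Wilson interval 12.3 to 14.2%), and the other 4253 are the regions described here. Distal peaks already acetylated at P0 stood on the other side, since 291 of 359 carried Brg1 (81.1%, 76.7 to 84.8%). The Wilson intervals here and below hold counting error only, and neighbouring peaks do not vary independently. All of these counts follow from the lists used for the selection and are a description.

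The new distal regions were short and of moderate height, which is given here as fold enrichment, the signal at the summit of a peak over its local background. Together they covered 3.20 Mb. Their lengths ran from 224 to 5235 bp with a median of 594 bp, and 954 (22.4%) were longer than 1 kb. In P21 replicate 2 their fold enrichment ran from 2.01 to 16.2 with a median of 5.22, and 88 (2.07%) exceeded 10. Over all peaks of that list the median was 485 bp and 4.75, and 10.9% exceeded 10. The 650 new distal peaks with a P0 Brg1 peak were longer, with a median of 778 bp, at a similar median height of 5.34. The 84 distal peaks acetylated in both P0 libraries had medians of 1051 bp and 5.66.

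**Figure D1:**
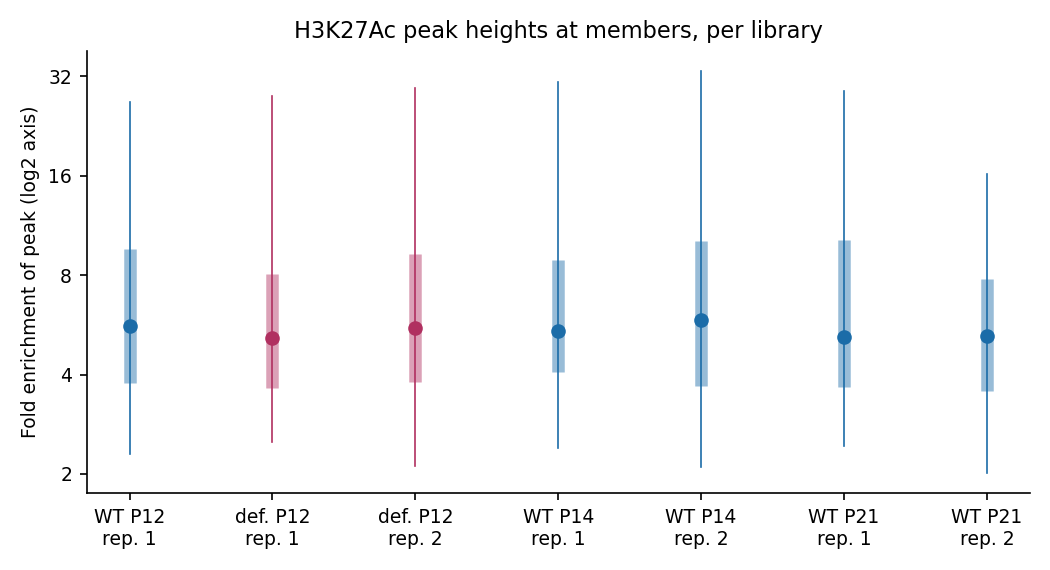
Fold enrichment (log2 axis) of the H3K27Ac peaks at the new distal regions in each library after P0, with wild-type (WT) in blue and Brg1-deficient (def.) in red. Points are medians, thick bars the 10th to 90th percentile and thin lines the full range over the regions with a peak in that library. Medians lay between 5.18 and 5.83 in every library.

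Unscaled median heights fell in a narrow range, as the plot of fold enrichment by library shows. Each median was taken over only the regions with a called peak in that library, so the sets of regions differ. At the 1556 regions with a peak in P14 replicate 1 the median was 5.41 in that library and 7.40 in P14 replicate 2. Where several peaks overlapped a region the highest was taken, so a region can carry the height of a longer peak whose summit lies outside it. Wild-type P12 gave 2.29 to 26.7 with a median of 5.63, and wild-type P14 gave medians of 5.41 in replicate 1 and 5.83 in replicate 2. The P21 replicates both had a median of 5.22. After scaling on the 6374 merged regions that had a peak in all wild-type H3K27Ac libraries, the new distal regions were higher at P21 than at P14 by a median of 0.65 on the log2 scale in replicate 2 and 0.58 in replicate 1. Over all regions these medians were 0.44 and 0.21. The replicates of one stage differed by as much: at the new distal regions replicate 2 minus replicate 1 had a median of -0.71 at P14 and -0.72 at P21. A gain from P14 to P21 was therefore no larger than the gap between replicates.

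Fold enrichments of single regions are given unscaled here and below. The factors by which the scaling above multiplied wild-type heights ran from 0.62 (P14 replicate 2) to 1.85 (P21 replicate 1). Library offsets thus enter every comparison of libraries at 1 region. The 10 regions of greatest fold enrichment in P21 replicate 2 spanned 12.5 to 16.2 in that library. The highest was chr19:37108731-37110055 (mm9), with 16.2 there and 11.6 in P21 replicate 1. It had 11.1 and 11.5 in the P14 replicates, 9.10 in wild-type P12, and 9.81 and 14.2 in the Brg1-deficient libraries, so it was high in all 7. A second member, chr19:37107375-37108669, was its neighbour, with 12.9 in P21 replicate 2. Its values of 14.2 in Brg1-deficient replicate 2, 11.5 in P14 replicate 2 and 11.6 in P21 replicate 1 are those of single peaks that spanned both regions.

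A different course was seen at chr10:62501860-62503199, with fold enrichments of 15.7 and 14.4 at P21 (replicates 2 and 1). The P14 replicates gave 6.98 and 7.79 and wild-type P12 gave 6.58 there. The Brg1-deficient P12 libraries gave 3.63 and 3.97. Both P21 values at this region lay above both P14 values, and both Brg1-deficient values lay below the wild-type one. On unscaled values chr13:105331034-105331669 was uneven between replicates, with 14.3 and 5.32 at P21 and 12.5 and 3.83 at P14 (replicates 2 and 1 in each case). Scaling narrows both gaps, since replicate 2 had the smaller factor at each stage (1.04 against 1.85 at P21, 0.62 against 1.30 at P14). This region had 3.76 in wild-type P12, 5.42 in Brg1-deficient replicate 2 and no peak in Brg1-deficient replicate 1.

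The other high regions were found in every H3K27Ac library after P0. At chr15:86640213-86643730 the fold enrichment was 13.3 and 20.0 at P21 (replicates 2 and 1), 15.5 and 17.0 at P14 (replicates 1 and 2), 11.2 in wild-type P12 and 13.1 and 14.4 in the Brg1-deficient libraries. At chr6:91604861-91606906 it was 13.6 and 13.1 at P21, 7.82 and 9.38 at P14, 8.03 in wild-type P12 and 5.18 and 6.72 in the Brg1-deficient libraries. The former region was thus higher in both Brg1-deficient libraries than in wild-type P12, and the latter lower in both. The regions chr16:58705385-58706024 and chr8:84322905-84324379 both had 12.7 in P21 replicate 2. The latter lay 455930 bp from the nearest P0 Brg1 peak, the farthest of these 10.

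The longest regions were 5235 bp each, at chr12:84785700-84790934 and chr12:87842511-87847745. The first had unscaled fold enrichments of 8.02 and 11.8 at P21 (replicates 2 and 1) and 12.3 and 15.6 at P14 (replicates 1 and 2). It had 14.4 in wild-type P12 and 8.48 and 14.1 in the Brg1-deficient libraries. No course over the stages is read from these values, since the library factors differ. The second had 10.1 and 10.1 at P21 and 6.94 and 17.2 at P14 (replicates 1 and 2). It had 11.9 in wild-type P12, from a peak with its summit outside the region, and 5.80 and 5.46 in the Brg1-deficient libraries. The next in length was chr12:76763577-76768740, which was also among the 10 highest, with 13.2 in P21 replicate 2 and 13.3 in replicate 1. It was followed by chr9:48052162-48057119 and chr17:47067252-47072191, with 6.71 and 9.26 in P21 replicate 2. Genes near these regions were not analysed here, since no annotation of build mm9 was used.

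The wild-type P12 library and P14 replicate 1 played no part in the selection. A wild-type P12 peak was present at 3755 new distal regions (88.3%, 87.3 to 89.2%), so most of them were acetylated before the first later stage that was used to choose them. P14 replicate 1 had a peak at 1556 (36.6%, 35.2 to 38.0%). Of all peaks of P21 replicate 2, the new distal ones included, 70.4% had a wild-type P12 peak and 31.8% a peak of P14 replicate 1, and of the new distal peaks with P0 Brg1 95.7% and 55.4% did. The selection asked for a peak in 2 further wild-type libraries, which all peaks did not have to meet. The 1556 regions found in P14 replicate 1 were taller and longer than the 2697 that were not, with medians of 5.92 against 4.91 in P21 replicate 2, 7.40 against 5.19 in P14 replicate 2 and 791.5 against 527 bp.

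**Figure D2:**
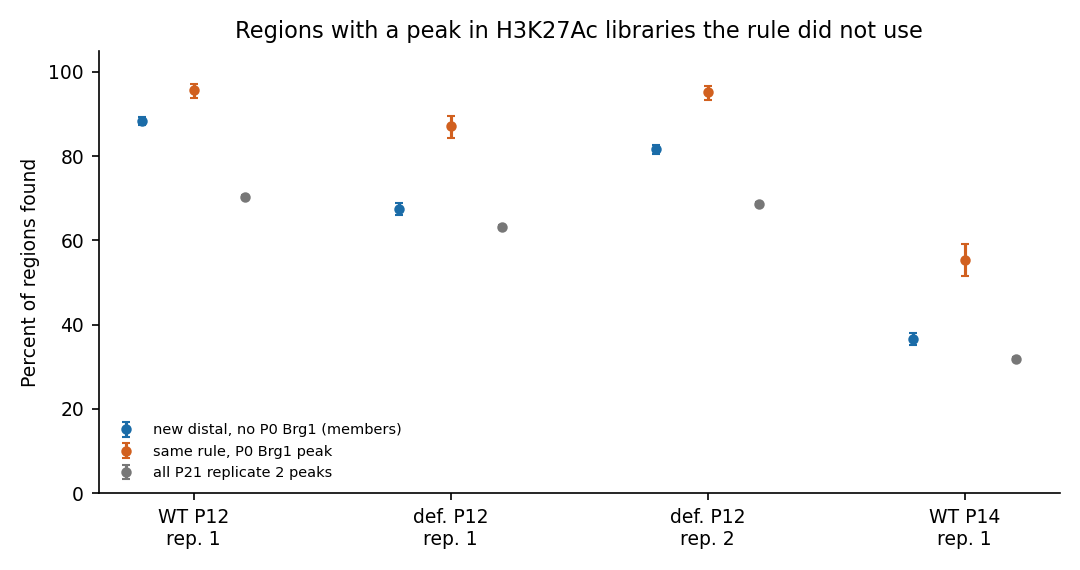
Percent of regions with a peak in the H3K27Ac libraries that did not take part in the selection, for the new distal regions without P0 Brg1 (blue), those with P0 Brg1 (orange) and all P21 replicate 2 peaks (grey), with Wilson 95% intervals. The blue points lie at 88.3, 67.5, 81.6 and 36.6%, below the orange points in each of the 4 libraries.

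Summit positions were compared as well, where an overlap of peaks this short already keeps summits near each other. In P14 replicate 2 the summit lay within 200 bp of the P21 replicate 2 summit at 65.4% of the new distal regions, with a median gap of 109 bp, and at 57.1% of those with P0 Brg1, with 155 bp. The median gap was 133 bp in wild-type P12, 119 and 141 bp in the Brg1-deficient libraries, and 194 bp in P21 replicate 1.

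The P12 libraries answer how many of these regions had acetylation in retinae in which Brg1 had been deleted in progenitors. Brg1-deficient replicate 1 had a peak at 2871 of the 4253 (67.5%, 66.1 to 68.9%) and replicate 2 at 3470 (81.6%, 80.4 to 82.7%). Both had a peak at 2668 (62.7%, 61.3 to 64.2%), and neither had one at 580 (13.6%). Of all P21 replicate 2 peaks, 57.7% had a peak in both and 25.8% in neither. All 3 P12 libraries had a peak at 2572 regions (60.5%). A peak in the wild-type library and in neither Brg1-deficient library was present at 341 (8.02%), while 239 (5.62%) had no peak in any P12 library. In the opposite direction, 498 regions had no wild-type P12 peak, and at 259 of these (52.0%) at least 1 Brg1-deficient library had a peak, against 34.8% of all P21 replicate 2 peaks without a wild-type P12 peak and 22 of 28 (78.6%) under the same rule with P0 Brg1. Most new distal regions were thus acetylated in Brg1-deficient retinae although the Brg1-deficient libraries differed from each other in how many they held.

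Beside the same rule with P0 Brg1, the share was lower. Among regions with a wild-type P12 peak, both Brg1-deficient libraries had a peak at 68.5% of the new distal regions without P0 Brg1 (67.0 to 70.0%), at 87.9% of those with it (547 of 622, 85.1 to 90.3%) and at 76.7% of all P21 replicate 2 peaks. Neither had a peak at 9.08%, 2.25% and 9.20%, respectively. Height moved with these shares. In the lowest of 5 bins of wild-type P12 fold enrichment (2.29 to 4.29), 44.2% of the new distal regions had a peak in both Brg1-deficient libraries, and in the highest bin (7.76 to 26.7) 92.0% did. The regions with P0 Brg1 went from 72.0 to 99.1% over the same bins and lay above the regions without it in every bin. Length was not matched in these bins, with medians of 778 bp with P0 Brg1 and 594 bp without. New distal regions found in both Brg1-deficient libraries had a median of 682.5 bp, against 463.5 bp for those in neither. All P21 replicate 2 peaks went from 46.1 to 97.5% and lay a little above the new distal regions in each bin. In bins of P21 replicate 2 height the order depended on the bin: among regions with a wild-type P12 peak, 62.2% of the new distal regions against 57.1% of all peaks had both in the lowest bin, and 83.1 against 96.7% in the highest. With 1 wild-type library no test across samples was run.

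**Figure D3:**
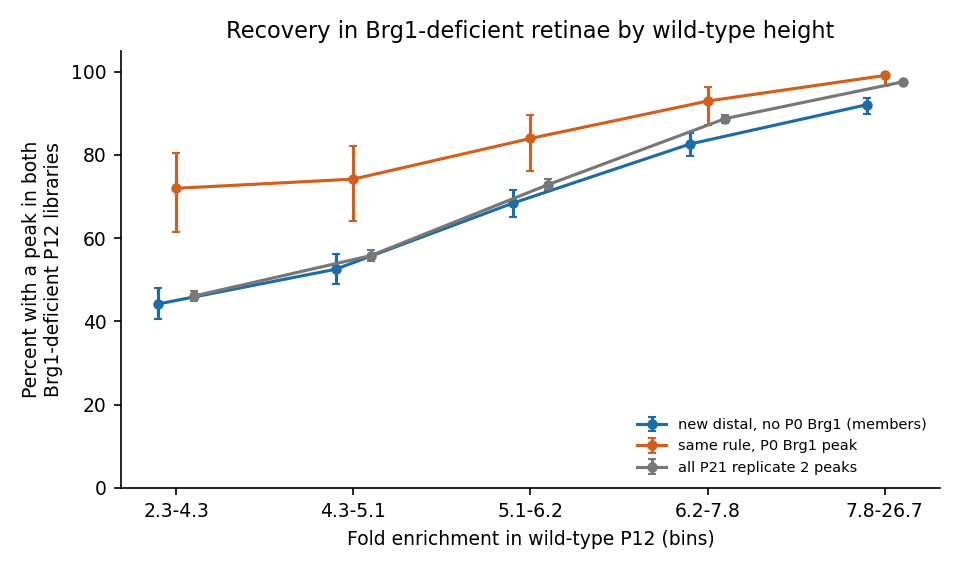
Percent of regions with a peak in both Brg1-deficient P12 libraries, by bin of fold enrichment in the wild-type P12 library, for regions that have a wild-type P12 peak; colours are those of the classes named in the key, and bars are Wilson 95% intervals. The blue line (new distal regions without P0 Brg1) rises from 44.2 to 92.0% and runs under the orange line (with P0 Brg1) in all 5 bins.

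Regions called absent were often beside a Brg1-deficient peak. Of the 341 regions found in wild-type P12 and in neither Brg1-deficient library, 199 (58.4%) had a Brg1-deficient peak within 1 kb of their edge and 70 (20.5%) within 200 bp. The 5 of these regions with the greatest wild-type P12 height, 9.90 to 12.4, were flanks of larger wild-type peaks. At chr4:150579481-150579830 the wild-type peak of 12.4 was 2820 bp long and had its summit outside the 350 bp region, and the Brg1-deficient peaks ended 163 and 74 bp away. At chr2:179372958-179373514 the wild-type peak of 11.8 was 5531 bp long, and the Brg1-deficient peaks lay 544 and 55 bp away. The same held at chr6:121450749-121451258 (wild-type 10.2, Brg1-deficient peaks 270 and 91 bp away) and chr9:47592167-47592432 (9.90, with peaks 755 and 826 bp away). Of the 5, only chr14:69879347-69879591 was far from a Brg1-deficient peak (22528 bp), with a wild-type P12 fold enrichment of 9.95, 12.9 in P14 replicate 2 and 11.3 in P21 replicate 1. Its wild-type peak also had its summit outside the region. All 5 had between 3.06 and 3.52 in P21 replicate 2 and no peak in P14 replicate 1.

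For a comparison of heights, the peaks of the 3 P12 libraries were merged, which gave 23219 merged regions found in all 3, and the libraries were given the same median height over these. A new distal region lay in 2398 of them. Their median height was 6.65 in wild-type P12, 5.34 in Brg1-deficient replicate 1 and 5.84 in replicate 2. The median log2 ratio to wild-type was -0.29 in replicate 1 and -0.20 in replicate 2, and -0.25 for the mean of both (SD 0.40 over regions). The mean ratio was below 0 at 1794 regions (74.8%). Without scaling the median was -0.11, with 62.1% below 0, and on −log10 q-values it was -0.46. On scaled heights both Brg1-deficient libraries were lower in the middle of the distribution, and the replicates differed from each other by a median of 0.10. Over all 23219 regions the median was -0.02, with 51.5% below 0, and 0.13 without scaling, so the new distal regions lay below all regions on either scale. The wild-type lists alone were used to choose the new distal regions, which favours regions that are high in wild-type retinae, and the size of that effect at P12 was not tested.

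Every other class of region had a higher median than the new distal regions. The 542 with P0 Brg1 under the same rule had a median of -0.17. Classes were set by overlap with the merged regions, so they are not separate and a merged region can count in more than 1. Outside the selection, 2412 regions without H3K4me3, P0 Brg1 or P0 acetylation had -0.17. The 1683 without H3K4me3 and with P0 Brg1 had -0.12, and the 16586 with H3K4me3 had 0.05. Without scaling these medians were -0.03, 0.02 and 0.20, and that of the 542 was -0.03. Distal regions were lower than promoter-marked regions with and without the selection on later stages. At the new distal regions the ratio hardly moved with height, from -0.24 to -0.28 over 5 bins of mean height, while over all regions it went from -0.13 in the lowest bin to 0.07 in the highest.

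**Figure D4:**
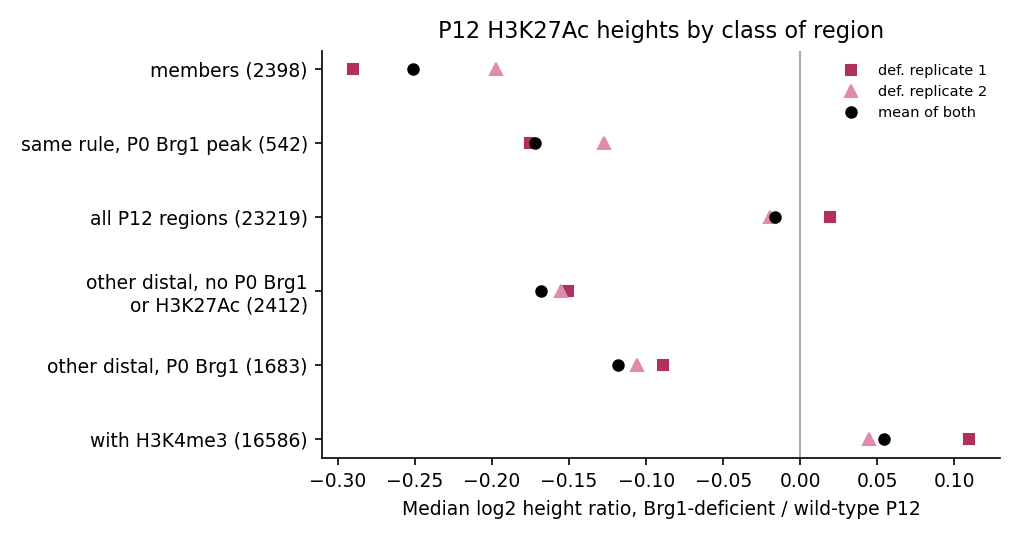
Median log2 ratio of scaled H3K27Ac height, Brg1-deficient over wild-type P12, for 6 classes of merged region (number of regions in brackets), for each Brg1-deficient replicate and for the mean of both. The new distal regions without P0 Brg1 (members) lie lowest at -0.29 and -0.20, and regions with H3K4me3 lie above 0 in both replicates.

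Losses of at least 2-fold were counted next. A merged region was counted as lower when its scaled height was at least 2-fold lower in both Brg1-deficient libraries. A merged region can hold more than 1 new distal region, and its height can come from a peak outside them. The counts in this paragraph are of merged regions. Of the 39927 with a wild-type P12 peak, 2956 were lower (7.4%). Of the 3589 that held a new distal region, 242 were (6.74%, 5.97 to 7.61%), 205 of them through having no peak in either Brg1-deficient library. This share was near the background of all regions and is no result about the new distal regions. By bin of wild-type height, 0 of 716 new distal and 0 of 12552 of all regions were lower in the lowest of 5 bins (2.45 to 4.54). None there could be, since 2 times the lowest scaled height of Brg1-deficient replicate 1 (2.31) lies above that bin. Those regions stay in the denominators of both shares. The new distal regions were under all regions in the second and the third bin (14.3 against 23.0% and 11.4 against 17.3%) and over them in the highest (2.61%, 1.68 to 4.04%, against 0.675%). Without scaling the shares were 5.04% and 4.43%, and with Brg1-deficient replicate 1 alone 19.3% and 13.3%, in the other order. At least 2-fold higher in both were 14 of 2477 (0.565%), against 2.77% of all 26165 regions counted, which include regions without a wild-type P12 peak. The selection on wild-type peaks favours a low share here, and the size of that effect was not tested. Of the regions with P0 Brg1, 16 of 633 (2.53%) were lower.

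Few of the new distal regions lay in H3K27me3 domains, as was so for the other distal classes. At P0, 112 of the 4253 (2.63%) lay in a domain of replicate 1 and 155 (3.64%) in a domain of replicate 2, and 87 (2.05%, 1.66 to 2.52%) in both. The regions with P0 Brg1 under the same rule were at 3.08 and 5.08% in the same libraries, none of the 84 distal peaks acetylated in both P0 libraries was in a domain there, which allows a share of up to 3.57%, and all P21 replicate 2 peaks, many of them with H3K4me3, were at 9.86 and 12.2%. At P14 the new distal regions in a domain numbered 7 and 10, at P21 they numbered 1 and 5, and at P12 they were 18 and 10 in wild-type and 8 in Brg1-deficient retinae. The shares after P0 thus ran from 0.0235 to 0.423%, whereas all P21 replicate 2 peaks ran from 6.55 to 9.85%. Low shares at P14 and P21 are favoured by the selection, which required acetylation at these stages. The length of genome inside domains did not fall with age, at 96.7 and 114 Mb at P0, 127 and 213 Mb at P14 and 142 and 152 Mb at P21.

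**Figure D5:**
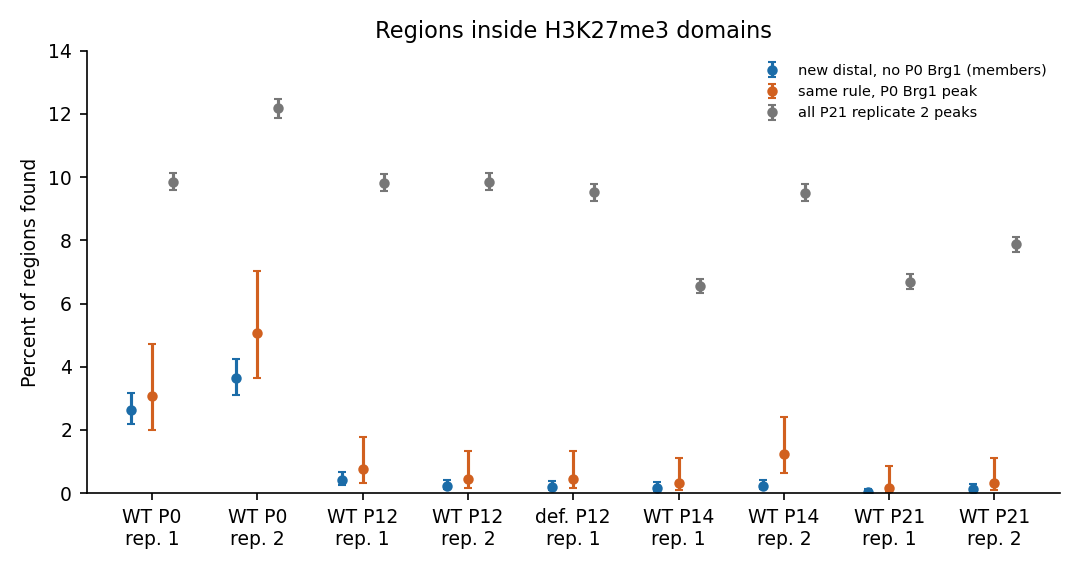
Percent of regions that overlap an H3K27me3 domain, in each of the 9 H3K27me3 libraries, for the new distal regions without P0 Brg1 (blue), those with P0 Brg1 (orange) and all P21 replicate 2 peaks (grey), with Wilson 95% intervals. The blue points are at 2.63 and 3.64% at P0 and at most 0.423% in each later library.

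Most of the 87 regions in a domain of both P0 replicates overlapped none later. The selection favours this, since it required H3K27Ac peaks at P14 and P21, and H3K27me3 cannot share their residue. Of the 87 regions, 74 (85.1%) overlapped no H3K27me3 domain in any later library, against 1118 of 4104 (27.2%) of all P21 replicate 2 peaks in both P0 lists. Under the same rule with P0 Brg1 it was 14 of 19 (73.7%, 51.2 to 88.2%), whose interval overlaps that of the new distal regions (76.1 to 91.1%). The list of all peaks also holds peaks with H3K4me3 and peaks without acetylation at P14, which the rule removed. At these 87 regions the median fold enrichment in P21 replicate 2 was 4.97, and 95.4% had a wild-type P12 peak. Brg1-deficient replicates 1 and 2 had a peak at 59.8 and 83.9% of them, and both did at 58.6% (48.1 to 68.4%), against 63.0% of the 4073 regions in no P0 domain. The latter share lies inside the interval of the former. The 87 regions lay closer to promoter-marked DNA, with a median of 1553 bp from the summit to an H3K4me3 peak of P21 replicate 1, against 7156 bp. Up to 4 of them shared a domain, at chr7:116150801-116157200, and 3 each lay in chr11:6959401-6966600 and chr16:92489801-92501800. In the first of these domains the fold enrichment in P21 replicate 2 ran from 3.58 to 5.35, and in the last from 5.94 to 8.96.

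The selection used overlap alone, so distances are described as they fell. The median distance from a summit to the nearest P0 Brg1 peak was 11031 bp (quartiles 3277 and 28990 bp), and 47.5% lay within 10 kb. The nearest P0 H3K27Ac peak of replicate 2 lay at a median of 16803 bp. At the edge of the rule, 48 regions ended within 100 bp of a P0 Brg1 peak, with a median fold enrichment of 4.85. Just outside it, 44 peaks overlapped a Brg1 peak by at most 100 bp, with 4.51. An H3K4me3 peak of P21 replicate 1 lay within 1 kb of the edge of 830 regions (19.5%). That list is the longer of the P21 H3K4me3 lists, with 24124 peaks against 18534. Measured from the summit, 14.1% of the regions lay within 1 kb of a peak of that list. For H3K4me3 peaks of both P21 replicates the share was 5.53%.

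The nearest promoter-marked DNA was described by its age. H3K4me3 peaks present in both P21 replicates and in no P0 replicate were 1050 of 17129 (6.13%). Such a peak was the nearest P21 H3K4me3 peak of 1145 new distal regions (26.9%, 25.6 to 28.3%), of 29.1% of those with P0 Brg1, of 21 of the 84 distal peaks acetylated in both P0 libraries (25%, 17.0 to 35.2%) and of 15.4% of all P21 replicate 2 peaks. Within 10 kb lay 771 of the new distal regions (18.1%, 17.0 to 19.3%), 20.6% of those with P0 Brg1, 20.2% of the distal peaks acetylated at P0 and 12.5% of all. The distal classes thus had overlapping intervals in both measures, whether or not their acetylation was new. In the Brg1-deficient P12 H3K4me3 library 4 of the 4253 regions (0.0941%) had a peak, with fold enrichments of 3.50 to 4.62.

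Neighbouring new distal regions were joined where they were within 12.5 kb of each other, with no such grouping made of other peaks. They formed 2094 groups, of which 1184 held a single region. Groups of at least 3 numbered 458 and held 2165 regions (50.9%). Some neighbours are pieces of what was 1 longer peak in another library, as on chromosome 19 above. The group with most members, chr4:53465859-53529457, held 22 regions in 63.6 kb with fold enrichments of 2.30 to 8.96 in P21 replicate 2. Wild-type P12 had a peak at 21 of them, P14 replicate 1 at 4 and the Brg1-deficient libraries at 14 and 17. That span held 1 P0 Brg1 peak and no H3K4me3 peak of both P21 replicates.

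Groups of similar size differed in how many of their regions were found in Brg1-deficient retinae. At chr12:87779775-87855840, 17 of 18 regions had a wild-type P12 peak and 10 and 15 had a peak in the Brg1-deficient libraries, with no P0 Brg1 peak in 76.1 kb. At chr2:77594539-77634465 all 17 had a wild-type P12 peak and 16 a peak in each Brg1-deficient library, with 1 P0 Brg1 peak in the span. At chr2:79230058-79263072 all 16 had a wild-type P12 peak and 15 and 16 a Brg1-deficient one, and 9 P0 Brg1 peaks lay between the regions. Groups of 16 at chr18:43002090-43045474 and chr8:60055052-60123311 held no P0 Brg1 peak. The first had a wild-type P12 peak at 14 regions and Brg1-deficient peaks at 7 and 13. The second had them at 13, and at 10 and 12. Whether these counts go with P0 Brg1 peaks in the span was not tested. The group at chr7:116104008-116157810 held the H3K27me3 domain with 4 regions named above. Of its 18 regions, 8 and 7 lay in H3K27me3 domains of the P0 replicates, 17 had a wild-type P12 peak, and 7 and 15 had a peak in the Brg1-deficient libraries. The regions of a group are neighbours and were counted separately in every share given above.

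On the autosomes the new distal regions were 7.40% (chromosome 4) to 11.9% (chromosome 12) of the peaks of P21 replicate 2. On the X chromosome they were 22 of 644 peaks (3.42%). The X peaks were found in P21 replicate 1 and P14 replicate 2 at least as often as others, at 37.9 and 84.3% against 37.8 and 77.6% on the autosomes. Distal peaks shared by the 3 lists were few on the X chromosome, 24 in all, and 22 of these were new and without Brg1.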

How the data were processed

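ChIP-seq of mouse retinae gave 27 libraries with peak lists among 35 samples, and 8 input samples had no list. The submitters' processing notes name CASAVA, BWA 0.5.9-r26, Picard 1.65, SAMtools, R 2.14.0, MACS2 2.0.9, bedtools 2.17.0 and SICER 1.1, with build mm9. The authors called peaks on each library alone. For each H3K27Ac, H3K4me3 and Brg1 peak they deposited the fold enrichment (a ratio over background) at the summit, and the −log10 p-value and −log10 q-value. For H3K27me3 the authors deposited broad domains with a score, which was not used. A fold enrichment depends on depth, and the lists carry no read counts.

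Samples were grouped by label, and the H3K4me3 libraries of P14 by their titles (replicates 2 and 3). The members and lists were chosen with earlier results of these data known. Overlaps (minimum 1 bp) were found in Python 3.11.15 using pandas 2.3.3 and numpy 2.4.6. All 27 lists were checked with bedtools 2.31.1 (0 differed), and the rules made 0 wrong calls on 2000 simulated peaks. Wilson 95% intervals came from scipy 1.17.1 and figures from matplotlib 3.10.9. Coordinates are 1-based. No test was run: wild-type P12 had 1 H3K27Ac library, and 2 libraries against 2 cannot go below an exact permutation p of 0.333. For the 2-fold call, a region absent from a library was counted where the wild-type height was at least 2 times the lowest height of that library. Regions were named by rule: the 10 highest in P21 replicate 2, the 5 longest, and the 5 highest in wild-type P12 with no Brg1-deficient peak. Groups and H3K27me3 domains were named by their number of members, after their values were seen. Alternatives covered overlap, peak thresholds, replicates, scaling and the measure of height. No genes, sequences or motifs were analysed here, since no mm9 genome was used. Of the regions so named, 1 is not reported here.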

Additional observations from a re-analysis of the deposited data

How the results depend on the processing

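Of 43 alternative values, 22 were labelled as moved and 21 as the same. That label is loose: it was given when the share of all regions at least 2-fold lower went from 7.40 to 4.43% without scaling. It was also given at 13.3% with Brg1-deficient replicate 1 alone. Counts, shares and distances cannot change sign, and the median log2 height ratio stayed below 0. The number of new distal regions was 2545 from the strongest 50% of P21 replicate 2 peaks and 1575 with P14 replicate 1 in place of replicate 2. Leaving out 1 library gave 4255 to 11055, the last without P21 replicate 1, whose shorter list thus decides the count. The share with a wild-type P12 peak was 83.5% with an overlap of 50% of either peak, 60.8% with the strongest 50% of that library's peaks and 92.2% for the strongest 50% of members. Under the same settings the P14 replicate 1 share was 33.8, 10.7 and 48.6%. The share in both Brg1-deficient libraries was 27.02% with the strongest 50% of their peaks, and 67.5 to 81.6% with replicate 2 or 1 left out. The P0 H3K27me3 share was 4.23% for either replicate and 2.63 to 3.64% for a single one.

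The median log2 height ratio was -0.11 without scaling and -0.46 on −log10 q-values, and -0.29 to -0.20 with 1 Brg1-deficient replicate. The share at least 2-fold lower was 21.6% at 1.5-fold (26.9% of all regions), 5.04% without scaling, and 17.6 to 19.3% with 1 Brg1-deficient replicate (13.3 to 26.1% of all regions). With replicate 1 alone the new distal regions exceeded all regions, and with replicate 2 alone they did not. The median Brg1 distance was 18739 bp to the strongest 50% of Brg1 peaks. Except where fewer peaks or samples were counted by construction, the cause was not tested. After the data were seen, the shares were also computed for members with no excluded peak within 1000 bp (87.3, 35.8 and 60.8%) and for H3K27me3 without chromosome X (2.03%), where the P14 replicate 2 list had no domain, and regions outside the selection were added to the height ratios.

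No paired analysis was possible because no result came from a test across samples, and wild-type P12 had a single H3K27Ac library. Depth in reads is unknown, so an absent peak is one not called in that library.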
